A study of Mus musculus with 10 samples.

Results

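The messenger RNA content of mouse morulae that had received a non-targeting antisense oligonucleotide (ASO-Control) was described from 5 of the 10 libraries of the study, replicates 1 to 5 of that group. The libraries were chosen by their label alone, and no Mettl3-ASO library entered any value. Each library was made from 10 pooled embryos. Superovulated oocytes were fertilized in vitro, the zygotes were injected 3 to 6 h after insemination, and the embryos were grown in KSOM, an embryo culture medium, to 72 h. No uninjected embryo was among the libraries used, so injection, oligonucleotide and culture are shared by all 5. Polyadenylated RNA was turned into amplified full-length cDNA with a kit for very small samples, SMART-Seq v4 PLUS. The labels give the strain, ICR, for replicates 1 and 2 only, and mark replicates 3, 4 and 5 as batch 2. Replicates 1 and 2 carry no batch and are called untagged. The labels do not say whether the libraries came from separate fertilizations, so every spread is that between these pools and may be partly technical. In a pool, fewer cells of a type and less RNA per cell cannot be told apart.

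The morula is the compacted ball of cells that precedes the blastocyst. Its outer cells polarize, form tight junctions and begin to turn into trophectoderm, the future placenta, under the transcription factors Tead4, Cdx2 and Gata3, while inner cells keep the pluripotency factors of the future inner cell mass. By this stage most oocyte transcripts have been degraded, and the burst of transcripts that marks genome activation at the 2-cell stage has passed.

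Expected counts, the estimated reads per gene, summed to 12761384 and 11802666 in the untagged libraries and to 28539451 to 32327283 in batch 2. Levels are given as TPM, a unit that sums to the same total in every library and corrects for transcript length and so allows genes to be compared with each other. A gene is called present where it reached 1 TPM in all 5 libraries. Of 24411 listed genes, 7972 (32.7%) were present, 2262 reached 1 TPM in some libraries, 14177 in none, and 6791 had no count in any. Pearson correlations of log2(TPM + 1) between library pairs were 0.973 to 0.989 across 10234 genes, which are not independent replicates. The chi-square of counts between libraries was at least 19.6 times its degrees of freedom (replicates 1 and 2), so no pair was counted as 1 library. That comparison covers counting error only. RSEM shares reads between near-identical gene copies by estimation, so the values of ribosomal protein genes, Ppia, globins, histones and members of the Trim43 and Obox clusters are less certain than those of single-copy genes. No source used here says whether reads were counted by strand.

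Dppa3, also called Stella, was the highest gene of the morula by length-corrected level. It lies at chr6:122626424-122630271 (GRCm38.p6) and encodes a protein of oocyte and early embryo chromatin that protects DNA methylation marks. It stood at 16702 and 18964 TPM in the untagged libraries and at 24361, 26394 and 25303 TPM in batch 2, a mean of 22345 ± 4257 TPM (SD, n = 5), or 2.23% of all transcripts. It was above the gene that came next, Dppa5a, in 5 of 5 libraries. Dppa5a (chr9:78367052-78368199) encodes an RNA-binding protein of pluripotent cells and varied little, from 14632 to 16431 TPM (mean 15447 ± 696, SD, n = 5). Its order relative to Ppia (chr11:6415867-6419817), the prolyl isomerase cyclophilin A, was not settled: Dppa5a was higher in 3 of 5 libraries, and Ppia averaged 15382 ± 1485 TPM.

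**Figure D1:**
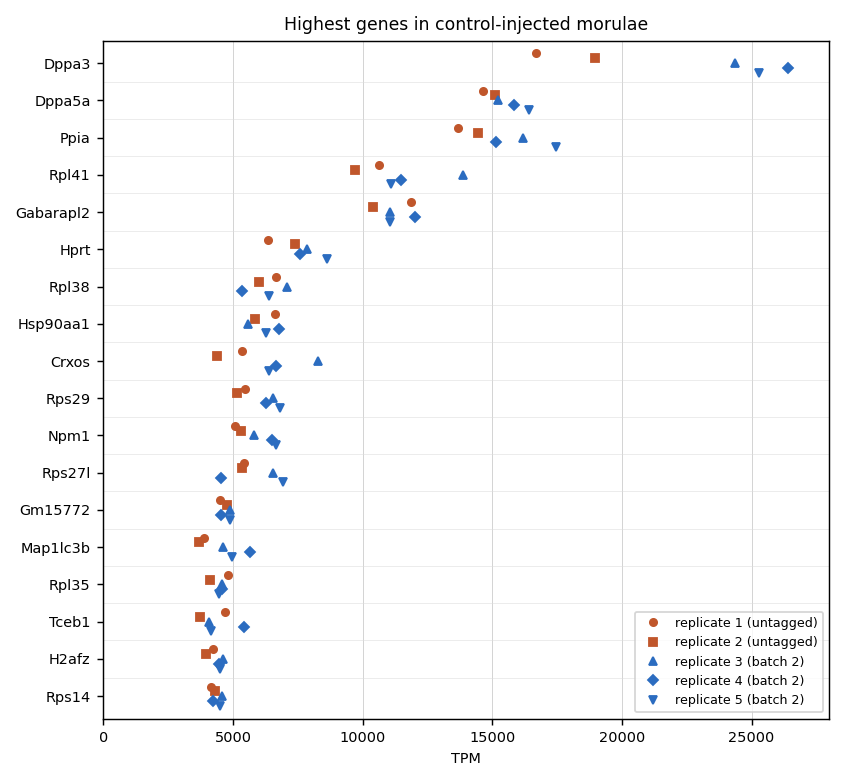
TPM (horizontal axis) of 18 of the 20 genes with the highest mean, ordered by mean, with a symbol for each of the 5 libraries (red, untagged; blue, batch 2). Dppa3 sits between 16702 and 26394 TPM and is the highest gene in every library, while from Rpl38 downwards neighbouring genes overlap.

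Of the 20 highest genes, 8 encode cytosolic ribosomal proteins, led by Rpl41 (11362 ± 1562 TPM, SD, n = 5) and including Rpl38, Rps29, Rps27l, Rpl35 and Rps14. Gabarapl2 (11276 ± 662) and Map1lc3b (4565 ± 802) encode the ubiquitin-like proteins that decorate autophagosome membranes. Hprt, an enzyme of purine salvage on the X chromosome (chrX:52988078-53021660), reached 6370 to 8635 TPM. Hsp90aa1, a cytosolic chaperone, stood at 6225 ± 495 TPM, Npm1, a nucleolar histone chaperone, at 5872 ± 706, and the replacement histone H2afz at 4357 ± 255. Crxos, a homeobox gene of the early embryo, ranged from 4400 to 8260 TPM. The set also holds Tceb1 (elongin C, 4420 ± 661 TPM) and Gm15772 (4712 ± 191 TPM), a predicted gene. Neighbours in this order mostly did not differ beyond the spread: 4 of the 20 genes, among them Dppa3 and Ppia, were above the next gene in 5 of 5 libraries. The order depends on the length correction, since by counts scaled to the library total (CPM), which favour long transcripts, Hsp90aa1 was at rank 1, Dppa3 at rank 2, Gabarapl2 at rank 3 and Rpl38 at rank 337.

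Few genes made up most of the message. The 10 highest genes held 11.3% ± 1.05 of TPM (SD, n = 5), the 100 highest 39.3% ± 1.59, and the 1000 highest 83.6% ± 1.72, and 154 to 186 genes were enough to reach 50% of the total. Protein-coding genes held 97.6% ± 0.0711, and 213 of the 3756 listed non-coding genes were present. Among present genes, 205 had a mean of at least 1000 TPM and together held 53.9% of all TPM, 1143 had 100 to 1000, 3096 had 10 to 100 and 3528 had up to 10. The median coefficient of variation over the 5 libraries rose from 10.6% in the highest class to 29.9% in the lowest, where counting error alone gives 6.44%. These values include the difference between the batches: within the untagged libraries the lowest class had 15.0%, and within batch 2 19.5%.

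All 6 morula markers were present, at very unequal levels. Pou5f1 (chr17:35506032-35510777), the central pluripotency factor Oct4, stood at 125 and 109 TPM in the untagged libraries and at 46.7, 63.2 and 50.1 in batch 2. Krt18 (chr15:102028216-102032026) and Krt8 (chr15:101996711-102004342), the paired keratins of the first epithelium, are neighbours on chromosome 15. Krt18 stood at 456, 525, 165, 103 and 87.3 TPM in replicates 1 to 5, and Krt8 at 329, 288, 104, 82.0 and 60.0. Krt18 was the higher of the pair in 5 of 5 libraries, and for both keratins every untagged library was above every library of batch 2. That separation was seen for 47.2% of all genes averaging at least 1 TPM. Gata3 (chr2:9857078-9887953), which directs trophectoderm fate, stood at 31.4, 22.9, 13.7, 15.2 and 10.8 TPM. Cdx2 (chr5:147300900-147307249), the defining trophectoderm factor, was the lowest of the 6, at 11.5, 5.04, 3.03, 5.11 and 1.99 TPM. Both factors were highest in replicate 1 and lowest in replicate 5, and the groups overlapped for Cdx2 only.

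Of 20 pluripotency and inner cell mass genes, 17 were present, and of 24 trophectoderm genes 18 were, against 32.7% of all listed genes. Zfp42 (Rex1) stood at 146 ± 21.3 TPM and Klf5, a factor of both lineages, at 117 ± 54.4. Nanog, which maintains the inner lineage, stood at 147, 121, 46.5, 123 and 50.3 TPM, so that replicate 4 of batch 2 lay with the untagged libraries. Sox2, an inner cell factor, was not present: it was at 2.6 TPM in replicate 1 and at 0.14 to 0.79 in the others. Fgf4, the signal that inner cells send, was at 0.45 to 1.75 TPM. In the trophectoderm list Krt18 and Krt8 were followed by Dab2, an endocytic adaptor, at 149 ± 15.9 TPM (SD, n = 5). Id2, an inhibitor of basic helix-loop-helix factors, stood at 139 ± 58.0 TPM. Eomes, a later trophoblast factor, was present at 1.81 ± 0.717 TPM, whereas Elf5 stayed at or under 0.05 TPM in every library. Of 13 primitive endoderm genes 4 were present: Gata6, which is also expressed in all cells before lineages separate, at 33.6 to 57.1 TPM, Lamb1 at 8.97 ± 2.82, Lamc1 and Col4a1. The later factors of that lineage were at or near 0, with Gata4 at most 0.44 TPM, Sox17 at most 0.03 and Foxa2 with no count.

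**Figure D2:**
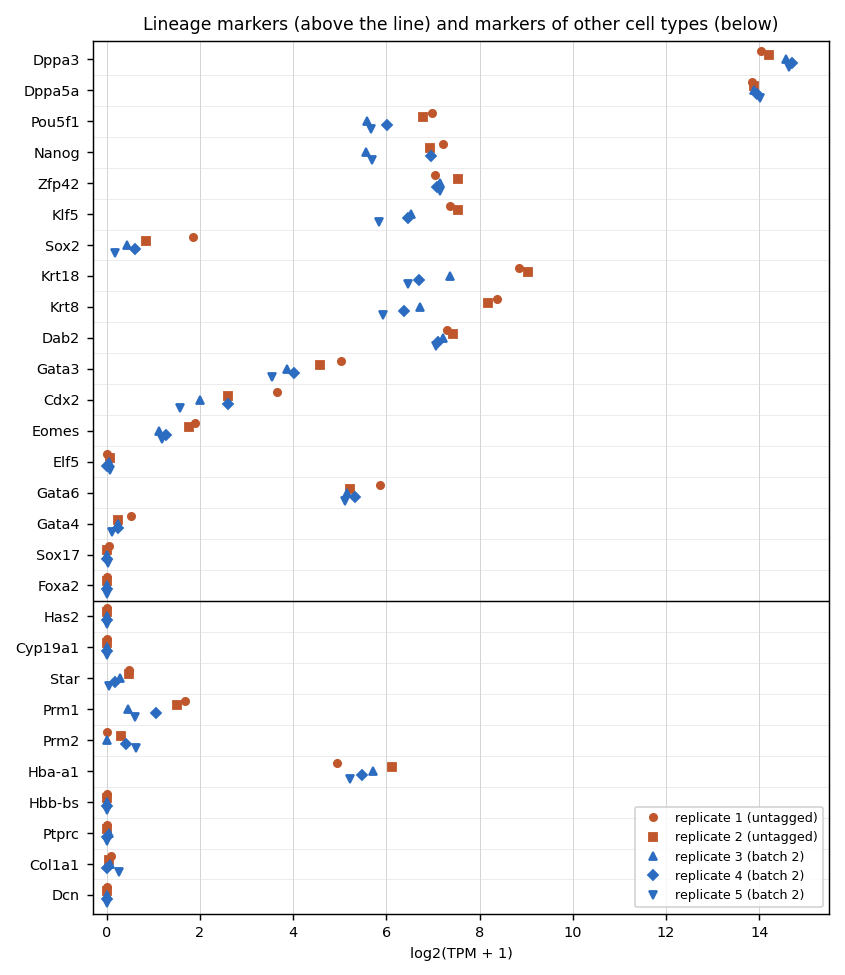
Levels as log2(TPM + 1) (horizontal axis) of lineage markers above the line and of markers of other cell types below it, with a symbol for each of the 5 libraries (red, untagged; blue, batch 2). Elf5, Gata4, Sox17 and Foxa2 sit near 0, Sox2 reaches 2.6 TPM in replicate 1, and Gata6 lies at 33.6 to 57.1 TPM. Below the line Hba-a1 lies at 29.8 to 68.7 TPM and Prm1 at 0.38 to 2.23 TPM, and the others sit at or near 0.

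Of 28 oocyte-deposited genes 8 were present, near the 32.7% of all listed genes, and the list held 2.30% of TPM because Dppa3 is among them. Khdc3, a member of the subcortical maternal complex, stood at 520 ± 113 TPM. Trim28, the corepressor that guards imprints, stood at 52.2 ± 9.16 and Ooep, another member of the complex, at 44.3 ± 10.5. The egg coat gene Zp3 was present at 1.12 to 3.09 TPM. Another egg coat gene, Zp2, and the oocyte growth factors Gdf9 and Bmp15 stayed under 1 TPM in every library, and the oocyte regulators Mos, Nobox and Zar1 stayed at or under 0.3. Of 22 genes of the 2-cell stage 4 were present. Sp110 stood at 89.6 ± 26.5 TPM, Ubtfl1 at 13.6 ± 3.90, while Dux, the factor that opens the 2-cell programme, was at most 0.26 and Zscan4c, Zscan4d and Zscan4f at most 0.5, 0.63 and 1.28.

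Markers of the other cell types that a pool of embryos could carry were at or near 0, apart from alpha-globin and, at a low level, the sperm gene Prm1. None of 12 cumulus and granulosa cell genes was present, and none reached 1 TPM in any library: Star was the highest at 0.232 ± 0.159 TPM, and Has2, Tnfaip6, Lhcgr, Cyp19a1, Inhba and Amh had no count. None of 7 sperm genes was present, with Prm1 highest at 0.38 to 2.23 TPM, and none of 6 fibroblast genes, with Col1a1 at most 0.21. Among 6 blood genes Hba-a1 stood at 29.8, 68.7, 51.8, 43.7 and 36.1 TPM, while the beta-globins Hbb-bs and Hbb-bt, needed for adult haemoglobin, had no count and the leukocyte gene Ptprc was at most 0.03. Summed over the list, blood genes held 0.00473% of TPM, and Hba-a1 and Hba-a2 are near-identical copies.

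The machinery of compaction was nearly complete, with 28 of 30 junction, adhesion and polarity genes present. Rhoa, the small GTPase that contracts the cortex, stood at 363 ± 37.0 TPM. The adhesion molecule Epcam stood at 326 ± 132 and Cldn7, a claudin of tight junctions, at 256 ± 143. Other claudins followed, Cldn4 at 81.2 ± 53.2 and Cldn6 at 68.6 ± 52.6, then alpha-catenin Ctnna1 at 64.0 ± 9.87 and beta-catenin Ctnnb1 at 37.5 ± 7.18. Cdh1, the cadherin that drives compaction, stood at 34.6, 26.1, 18.0, 16.2 and 16.4 TPM, above all other classical cadherins in 5 of 5 libraries. Keratins were limited to few genes: of 52 listed, 4 were present, Krt18, Krt8, Krt10 (8.82 ± 3.05 TPM) and Krt7 (3.72 ± 2.57).

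In the Hippo pathway, which reads cell position, 14 of 18 genes were present. The kinase Stk4 stood at 13.8 ± 0.813 TPM, the coactivator Wwtr1 (Taz) at 13.4 ± 3.51 and the DNA-binding partner Tead4 at 12.9 ± 3.38, with Yap1 at 3.45 ± 1.23. The members Amotl1 and Tead3 stayed at or under 0.28 and 0.29 TPM. In the FGF and ERK pathway, which sends inner cells to primitive endoderm, 14 of 24 were present. The kinase Map2k2 (29.0 ± 10.1 TPM) and the adaptor Grb2 (25.1 ± 5.34) were among the highest, Fgfr2 was steady at 7.04 to 8.04, and the ligands Fgf5, Fgf8 and Fgf10 stayed at or under 0.25.

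For Wnt signalling, 8 of 30 genes were present, near the 32.7% of all listed genes. Ctnnb1, the palmitoylase Porcn (11.3 ± 4.75 TPM) and Gsk3b (10.3 ± 2.11) led the list. Wnt7b was the highest ligand at 2.83 ± 1.48 TPM, while the transcription factor Lef1 stayed at or under 0.09 and the target Axin2 at or under 0.20. For TGF-beta and BMP signalling, 11 of 30 were present. Id2, Id3 (39.2 ± 18.3 TPM) and the ligand Gdf3 (14.5 ± 4.66) led, whereas Id1 ranged from 0.14 to 1.91 and was not present. Nodal stayed at or under 0.15, Bmp4 at or under 0.51, and Tgfbr2 at or under 0.18. For LIF signalling, 10 of 20 were present, led by Socs1 (26.1 ± 6.95 TPM), Stat6 (10.1 ± 2.59) and Jak1 (8.81 ± 1.94). The receptor genes Lifr and Il6st stayed at or under 0.03 and 0.16 TPM. Of 27 interferon and RNA sensing genes 2 were present: Irf3 (2.47 ± 1.08 TPM) and Irf9 (2.34 ± 0.925) were the pair, Myd88 had a mean of 2.53, and Ifnb1, Ifit1, Ifit3 and Tlr3 had no count.

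Gene sets of mitochondrial respiration were present in full or nearly so. All 36 complex I genes, all 16 ATP synthase genes and 25 of 26 pyruvate entry and TCA cycle genes were present. They held 1.69% ± 0.0760, 1.71% ± 0.0516 and 0.485% ± 0.0136 of TPM (SD, n = 5). Ndufa4 (1627 ± 146 TPM) and Ndufc1 (1615 ± 87.7) led complex I. Atp5j (3342 ± 130 TPM) and Atp5h (2170 ± 152) led ATP synthase. Mpc1, a subunit of the mitochondrial pyruvate carrier, stood at 1042 ± 129 TPM, Mdh2 at 616 ± 116 and Pdhb at 452 ± 20.2, while Pdk1, a kinase that shuts pyruvate dehydrogenase off, stayed at or under 0.3.

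Glycolysis was thinner, with 17 of 26 genes present and 0.102% ± 0.0334 of TPM. Aldoa stood at 421, 523, 294, 244 and 249 TPM, Gapdh at 422, 306, 147, 209 and 110, and Pgam1 at 150 ± 47.3. For Aldoa and Gapdh the untagged libraries were above all of batch 2. The same was true of 11 of 19 glycolysis genes averaging at least 1 TPM, against 47.2% of all such genes. Each step was carried by mainly 1 isoform. Hk2 held 86.4% ± 9.02 of hexokinase TPM, Aldoa 99.95% of aldolase, Eno1 89.6% ± 2.83 of enolase, Pkm 99.2% ± 0.903 of pyruvate kinase and Ldha 84.7% ± 2.40 of lactate dehydrogenase. Phosphofructokinase was low in every form: Pfkl had a mean of 1.87 TPM and Pfkm and Pfkp stayed at or under 0.35 and 0.49. Slc2a3 was the leading glucose transporter at 35.5 ± 17.0 TPM, above Slc2a8 in 5 of 5 libraries.

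Protein synthesis took the largest share of any list examined. Cytosolic ribosomal protein genes held 20.6% ± 1.09 of TPM (SD, n = 5), and 85 of 86 were present, the exception being Rpl3l, a muscle form, at or under 0.13 TPM. By CPM, without the length correction, the same list holds 9.33% of the total. All 77 mitochondrial ribosomal protein genes were present, led by Mrpl22 (1508 ± 109 TPM), Mrpl33 (1087 ± 186) and Mrpl42 (860 ± 92.1). Of 64 translation factors 55 were present, led by Eif5a (4102 ± 685 TPM), Eif1 (2327 ± 301) and Eif2s2 (2209 ± 471). For elongation factor 1A, Eef1a1 (2206 ± 335 TPM) held all reads, since the muscle and neuronal form Eef1a2 had no count.

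Of 39 proteasome genes 36 were present, led by the core particle subunits Psma6 (2023 ± 338 TPM), Psma7 (1905 ± 224) and Psma2 (1903 ± 89.4). Of 25 heat shock and chaperonin genes 22 were present. Hsp90aa1 was above the form that many cells use most, Hsp90ab1 (2217 ± 426 TPM), in 5 of 5 libraries, and Hspa8, the constitutive Hsp70, stood at 3997 ± 398. The stress-inducible Hspa1a and Hspa1b stayed at or under 0.65 and 3.98 TPM. For the V-ATPase, the proton pump of lysosomes, 17 of 26 genes were present, led by Atp6v0e (762 ± 103 TPM), and among 59 Rab GTPases 36 were, led by Rab11a (236 ± 33.3) and Rab2a (198 ± 24.3).

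Defence against oxidation was broad, with 23 of 25 genes present. Prdx1 (2232 ± 265 TPM), Gpx4 (963 ± 87.8), which removes lipid peroxides, and Txn1 (631 ± 41.8) led, and the extracellular dismutase Sod3 stayed at or under 0.02 TPM. Of 20 genes of mitochondrial shape and removal 18 were present, led by the mitophagy receptor Bnip3 (1072 ± 211 TPM), Apoo (336 ± 29.0) and Bnip3l (273 ± 29.1), with Park2 (Parkin) at or under 0.44. Of 17 genes of mitochondrial DNA upkeep 14 were present, led by Ssbp1 (322 ± 20.1 TPM) and Tefm (69.2 ± 15.6), while the coactivator Ppargc1a had no count. Among 364 solute carriers 119 (32.7%) were present, the same share as of all listed genes, and the mitochondrial carriers Slc25a5 (1236 ± 158 TPM), Slc25a3 (496 ± 41.2) and Slc25a4 (305 ± 143) were the highest.

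Of 16 DNA methylation genes 10 were present. The cofactor Dnmt3l stood at 82.4, 107, 84.2, 56.0 and 77.5 TPM and held 81.3% ± 4.93 of the methyltransferase TPM (SD, n = 5), above Dnmt3b (14.3 ± 6.29 TPM), Dnmt3a (2.53 ± 0.414) and the maintenance enzyme Dnmt1 (1.91 ± 0.552). By CPM, which is not corrected for length, that share is 48.1%. Among the TET dioxygenases, which oxidize methylcytosine, Tet2 held 79.2% ± 0.97, and Tet3, the oocyte form, stayed at or under 0.3 TPM. Mbd3, a subunit of the NuRD complex, stood at 25.1 ± 7.44 TPM.

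Of 28 Polycomb and H3K27 demethylase genes 18 were present. The shared histone-binding subunit Rbbp7 (613 ± 183 TPM), Mtf2 (275 ± 38.3) and Eed (175 ± 45.3) were the highest, and Ezh2 (37.3 ± 4.01) held 94.4% ± 1.15 of the TPM of the catalytic pair with Ezh1. Of 17 genes of H3K9 methylation and heterochromatin 15 were present, with the HP1 genes Cbx3 (126 ± 14.5 TPM) and Cbx1 (117 ± 17.4) in no settled order, since Cbx3 was higher in 3 of 5 libraries. Of 14 H3K4 methylation genes 9 were present. The shared subunits Dpy30 (1234 ± 61.3 TPM), Ash2l (140 ± 14.6) and Wdr5 (71.8 to 94.7) led, and the enzymes were far lower, with Setd1a at 1.58 ± 0.35 and Kmt2a at or under 0.05. Of 22 BAF remodelling genes 18 were present, led by Actl6a (63.0 ± 8.63 TPM), Smarce1 (60.3 ± 7.37) and Smarcb1 (50.8 ± 9.36), and the neuronal form Actl6b stayed at or under 0.06. Among histone variants, 8 of 12 were present, H3f3a (2633 ± 375 TPM) and H3f3b (1452 ± 181) below H2afz.

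Of 21 genes that write, read or erase N6-methyladenosine (m6A), the mark the study addresses, 18 were present in the controls. The writer's adaptor Wtap stood at 401, 387, 261, 366 and 273 TPM, far above the catalytic Mettl3 at 11.1, 14.0, 6.34, 7.92 and 6.59 and its partner Mettl14 at 6.19 ± 1.85. Among readers Hnrnpa2b1 (304 ± 19.7 TPM) and Ythdf2 (36.9 ± 5.23) led. The eraser Fto stayed at or under 0.49 TPM, and Alkbh5, the other eraser, stood at 3.21 ± 0.905.

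Of 33 cyclin and mitotic kinase genes 24 were present. Ccnb1, the mitotic cyclin, stood at 553, 840, 750, 971 and 879 TPM, Cdk1 at 236 ± 52.0 and Aurka at 171 ± 32.2. Among D-type cyclins Ccnd3 (48.2 ± 19.8 TPM) held 98.5% ± 0.747, with Ccnd2 at or under 0.07 TPM. Cyclins E1 and E2 were both present, with Ccne1 at 62.0 ± 22.7 TPM. Of the inhibitors, Cdkn1a stood at 144, 117, 74.4, 35.8 and 67.4 TPM, and Cdkn1b and Cdkn2a stayed at or under 0.14 and 0.32. All 31 replication genes were present, led by the licensing inhibitor Gmnn (613 ± 35.4 TPM), the sliding clamp Pcna (241 ± 30.6) and Gins4 (188 ± 8.86). In the apoptosis list 16 of 28 were present, led by Cycs (315 ± 14.3 TPM), Bax (262 ± 32.7) and Diablo (146 ± 6.83). Bcl2 and Bak1 stayed at or under 0.11 and 0.22 TPM.

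Some families showed 1 member, or none. Among 19 Sox genes Sox15 stood at 98.4 ± 23.1 TPM and no other was present. Among 6 Obox homeobox genes Obox6 (chr7:15833250-15839679) stood at 332 ± 142 TPM and the other 5 stayed at or under 0.66. Among 17 Krueppel-like factors 10 were present, led by Klf5, Klf2 (16.0 ± 4.95 TPM) and Klf6 (15.3 ± 7.62). Among 29 nuclear receptors 8 were present, led by Nr5a2 (18.1 ± 4.30 TPM), Nr1h2 (17.2 ± 7.31) and Nr6a1 (6.44 ± 1.74), with Esr1 at or under 0.03 and Nr5a1 with no count. Of 39 Hox genes none was present, and the highest was Hoxb13 at 0.88 to 2.94 TPM. None of 1107 olfactory and 329 vomeronasal receptor genes was present, and 951 and 266 of them had no count. Of 363 genes named Zfp, 184 were present, led by Zfp706 (594 ± 44.3 TPM), and of 54 DEAD and DEAH box genes 43 were, led by the export helicase Ddx39 (437 ± 30.7). Among 12 annexins 7 were present, with Anxa2 highest at 192 ± 64.6 TPM.

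**Figure D3:**
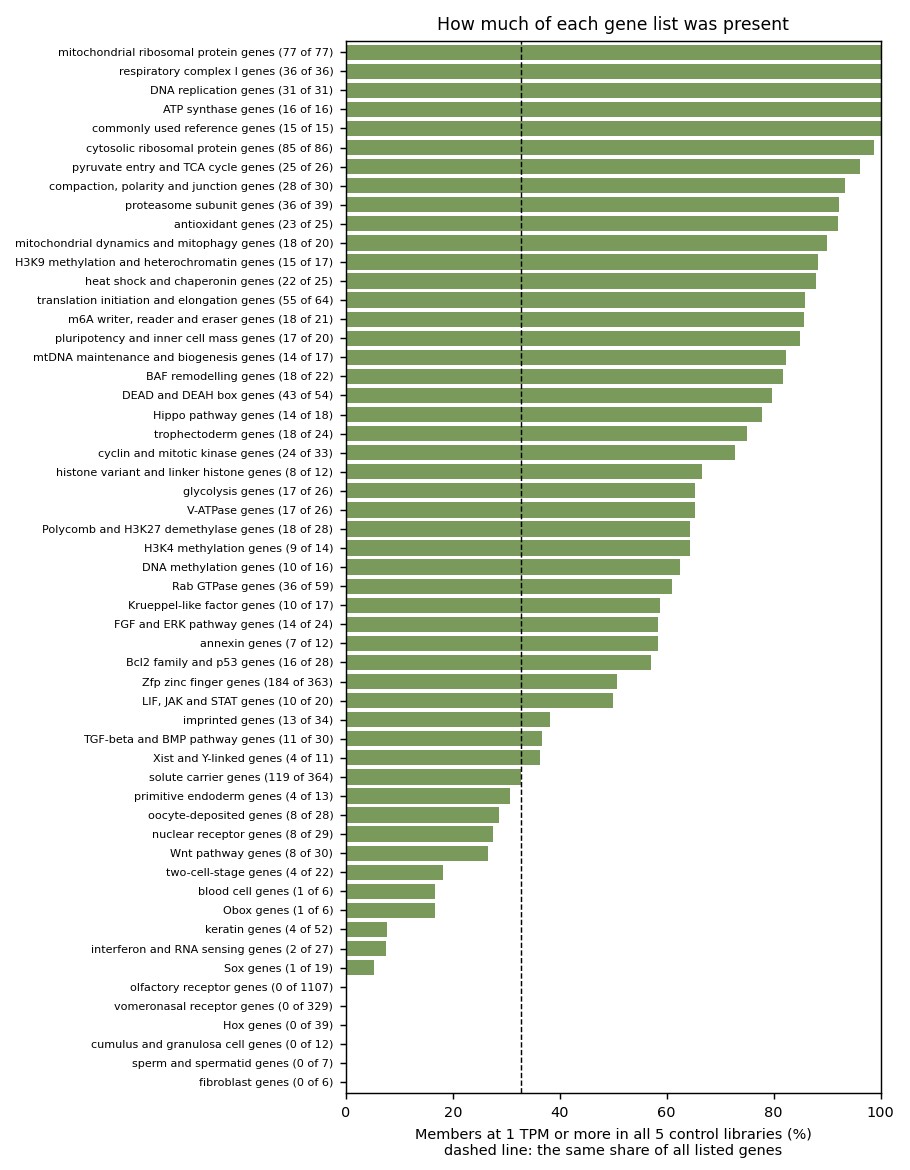
Share of the members of each of 55 gene lists that reached 1 TPM in all 5 control libraries (horizontal axis, %), with the members present and listed in brackets; the dashed line marks the share of all listed genes, 32.7%. Replication, complex I, ATP synthase and mitochondrial ribosome lists are complete, and Hox, olfactory and vomeronasal lists are at 0.

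Of 34 imprinted genes 13 were present. Snrpn, expressed from the paternal copy, stood at 241 ± 21.1 TPM, Gnas at 154 ± 25.9 and Impact at 31.8 ± 4.31, while H19 had no count and Igf2 and Dlk1 stayed at or under 0.16 and 0.03. The median TPM of 294 present X-linked genes was 0.939 to 1.02 times that of 7661 autosomal ones. Y-linked Eif2s3y stood at 9.55, 30.0, 41.3, 67.1 and 56.8 TPM and Ddx3y at 3.48, 8.39, 8.36, 18.1 and 13.4, lowest for both in replicate 1. Xist, the RNA that coats the inactive X, stood at 6.84 ± 2.31 TPM and its overlapping antisense partner Tsix at 37.1 ± 9.96. Reads from the stretch where this pair overlaps cannot be told apart unless strand was used.

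Related genes were rarely expressed in equal parts. In 33 of 37 sets of paralogs the same member was highest in 5 of 5 libraries, and in 10 of them it held at least 90% of the set's TPM in every library. Cdh1 held 99.4% ± 0.333 of classical cadherin TPM (SD, n = 5) and Ccna2 99.9% ± 0.191 of the A-type cyclins. Atp1b3, at 129 ± 35.6 TPM, exceeded Atp1b1 (21.5 ± 10.1), the beta subunit on the trophectoderm list, in 5 of 5 libraries and held 85.9% ± 4.10. Tead4 held 74.6% ± 4.94 of the TEAD factors, Fgfr2 65.9% ± 5.12 of the FGF receptors and Gja1 61.9% ± 9.47 of the connexins. In 4 sets the lead changed between libraries. Actb was above Actg1 in 3 of 5 libraries, Aqp9 above Aqp3 in 3, Cbx3 above Cbx1 in 3 and Sod2 above Sod1 in 4. Aqp9, a water and solute channel, stood at 31.7, 33.9, 20.6, 25.0 and 20.5 TPM, and Aqp3, which is on the trophectoderm list, at 44.8, 39.7, 11.5, 22.3 and 9.44. By CPM the same member led in at least 3 of 5 libraries in 36 of 37 sets, and Aqp9, Cbx3 and Sod2 were above the rest of their sets in 5 of 5 libraries, with 62.0%, 46.3% and 90.8% of the set, while Actb led in 3.

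**Figure D4:**
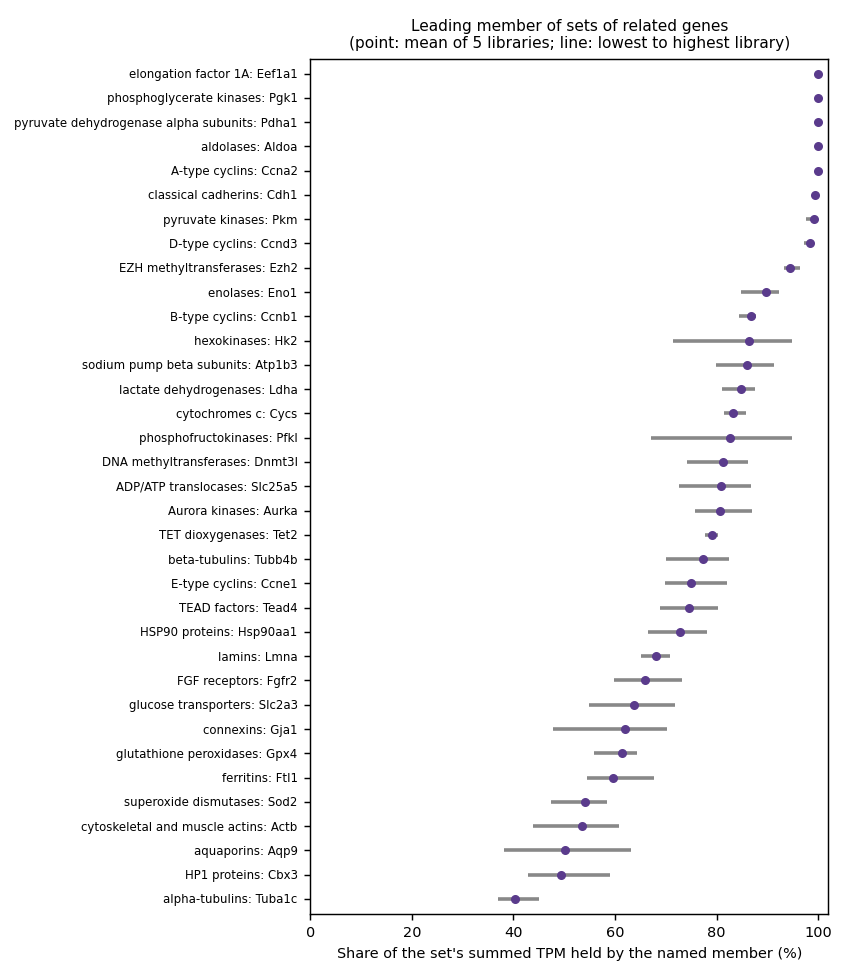
Share of the summed TPM of each of 35 sets (horizontal axis, %) held by its leading member, named after the set; points are means of 5 libraries and lines run from the lowest to the highest library. In 9 sets the share is at least 90% in every library, and in the lowest set, the alpha-tubulins, Tuba1c holds 40.3%.

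Genes with the largest spread over the 5 libraries, among those averaging at least 10 TPM, were of several kinds. Ly6e, a membrane glycoprotein, stood at 171 and 367 TPM in replicates 2 and 3 and at 18.8 to 19.96 in the others. Xkr9 was at 43.5 TPM in replicate 2 and at most 8.25 elsewhere, and Srfbp1 at 56.6 TPM in replicate 4 and at most 10.8 elsewhere. None of these 3 followed the batch. Rps27, a ribosomal protein gene, ranged from 20.6 to 349 TPM and Snora81, a small nucleolar RNA, from 0 to 49.5 TPM. Snora81 was higher in both untagged libraries than in batch 2, but rests on 13 counts in all, on an effective length of 8.31 bases. The other 5, Trim43c, Mt2, Mt1, Lgals1 and Tmsb4x, separated the batches too.

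Whether the control embryos of the untagged libraries and of batch 2 shared 1 baseline was the comparison the labels allow within this group. Depth, batch and the strain label move together across the 5 libraries and cannot be told apart. More genes reached 1 TPM in the untagged libraries although they were shallower: 9636 and 9452, against 8666, 8764 and 8567 in batch 2. Genes with any count did not separate the groups, at 14859 and 14666 against 15100, 14777 and 14809. The difference at 1 TPM was -878 genes on average, with a two-sided exact permutation p of 0.2, the smallest that 10 relabellings give here. With all libraries thinned to the shallowest it was -874. Thinning leaves a gene's expected TPM unchanged, so that value says little about depth.

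Genes were tested with edgeR's quasi-likelihood test on rounded expected counts, and called at a Benjamini-Hochberg adjusted p under 0.05. Of 9132 genes with a mean of at least 1 TPM, 589 (6.45%) were called, 370 (4.05%) higher and 219 (2.4%) lower in batch 2. The split depends on the scale. In edgeR, which centres on a trimmed mean, the median gene moved by -0.03 on the log2 scale. On log2(TPM + 1) with limma the median moved by -0.33, and 70 genes were called higher and 1029 lower. With each library centred on its median, limma called 211 higher and 122 lower. Without replicate 1 only 15 genes were called, without replicate 2 83 and without replicate 5 93. On TPM, 47.2% of the genes tested were lower in every batch 2 library than in either untagged one, and 6.27% were higher.

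The metallothioneins, small proteins that bind zinc and copper, had the largest rises in batch 2 among well-expressed genes, beside Trim43c and Tdrd12. Mt1 stood at 859 and 369 TPM in the untagged libraries and at 3427, 2681 and 3772 in batch 2, a log2 fold change of 2.73 ± 0.31 (SE, adjusted p = 0.00714). Mt2 stood at 424 and 133 TPM against 1759, 1154 and 1770, a log2 fold change of 2.80 ± 0.41 (adjusted p = 0.00911). The groups did not overlap for either gene. Both stayed called under all 14 alternatives that were run.

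Mt1 and Mt2 lie next to each other on chromosome 8. The 250 bases upstream of the Mt2 start are shown because metallothionein promoters are known for metal response elements. The stretches before the Krt8 and Krt18 starts are shown for contrast, since these neighbours moved the other way. The sequences are RefSeq's (GRCm38.p6), at chr8:94172368-94172617 on the plus strand, chr15:102004343-102004592 on the minus strand and chr15:102027966-102028215 on the plus strand. Capitals mark the element's core, TGCNCNC on either strand, in Mt2. In the keratins capitals mark AGATAA, the core that GATA factors bind.

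Mt2: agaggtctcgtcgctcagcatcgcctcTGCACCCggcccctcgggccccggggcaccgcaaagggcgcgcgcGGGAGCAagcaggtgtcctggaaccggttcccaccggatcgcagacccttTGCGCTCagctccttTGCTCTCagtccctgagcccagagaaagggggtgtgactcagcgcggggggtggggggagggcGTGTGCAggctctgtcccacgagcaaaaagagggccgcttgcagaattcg
Krt8: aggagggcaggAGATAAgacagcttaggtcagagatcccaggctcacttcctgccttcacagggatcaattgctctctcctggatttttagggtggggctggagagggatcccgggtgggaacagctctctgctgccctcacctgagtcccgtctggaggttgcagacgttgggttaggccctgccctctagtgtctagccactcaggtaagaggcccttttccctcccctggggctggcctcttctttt
Krt18: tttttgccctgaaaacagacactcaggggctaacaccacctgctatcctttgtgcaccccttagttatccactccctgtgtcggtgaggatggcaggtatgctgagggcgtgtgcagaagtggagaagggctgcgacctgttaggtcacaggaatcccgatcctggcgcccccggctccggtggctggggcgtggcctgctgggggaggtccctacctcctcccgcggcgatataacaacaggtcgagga

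The Mt2 stretch held 5 matches to TGCNCNC, a number reached by 0.311% of 27025 RefSeq promoter stretches of the same length. Mt1, which rose as well, held 1 match in its stretch (chr8:94178839-94179088), a number that 43.8% of stretches reach. The Mt1 stretch runs past the annotated start of Mt1 at 94178883, so this count does not describe the bases upstream of that start. The letters of the stretch are not printed because an annotated transcript overlaps it. Krt8, which fell, held 4 matches, a number reached by 1.26% of stretches, and Krt18 held 2. AGATAA occurred once in Krt8, as in 10.3% of stretches, and not in Krt18. A match is a description of letters and not a measured site.

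The other large rises included genes of germ line and early embryo. Obox6 stood at 166 and 198 TPM against 375, 436 and 482, a log2 fold change of 1.58 ± 0.17 (adjusted p = 0.00468). Trim43b stood at 95.7 and 216 TPM against 371, 617 and 505 (log2 fold change 2.02 ± 0.30, adjusted p = 0.0097), and Trim43c ranged from 12.5 to 198 TPM and was not called without replicate 1, 2 or 5. Tdrd12, a gene of the piRNA pathway, stood at 1.58 and 3.02 TPM against 7.82, 13.6 and 12.4, and was not called without replicate 1 (adjusted p = 0.0755). Hist1h2ao, 1 of many similar histone H2A genes whose main transcripts lack a poly(A) tail, rose by 1.71 ± 0.24. Id3, Bex6, Eif2s3y and Tnfsf13b rose as well. Of these, Id3, Bex6 and Tnfsf13b were not called without replicate 1 or 2, and Eif2s3y not without replicate 1 or 5. Dppa3 rose by 0.83 ± 0.10 (adjusted p = 0.00882), and its groups did not overlap, but without replicate 1 the adjusted p was 0.0623.

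**Figure D5:**
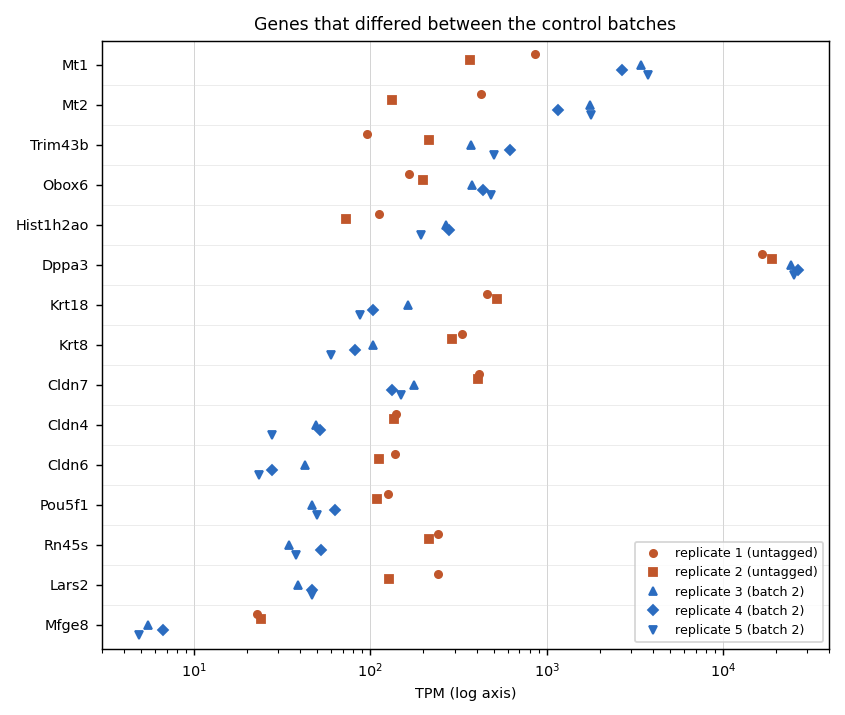
TPM on a log axis of 15 genes called between the control batches, with a symbol for each library (red, untagged, replicates 1 and 2; blue, batch 2, replicates 3 to 5). Mt1, Mt2, Trim43b, Obox6, Hist1h2ao and Dppa3 lie higher in all 3 libraries of batch 2, and the other 9 genes lie lower.

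Some genes of the outer epithelium fell in batch 2. Of 19 trophectoderm genes tested, 6 fell and none rose, against 2.4% of all genes called lower: Krt18, Krt8, Cldn6, Cldn4, Aqp3 and Atp1b1. The list's median log2 fold change was -0.69 against -0.03 for all genes, and 16 of the 19 were lower in every batch 2 library on TPM, against 47.2% of all genes. Krt18 fell by 1.70 ± 0.24 (adjusted p = 0.00882), and Krt8 fell by 1.56 ± 0.21 (adjusted p = 0.00882). Cldn6 stood at 137 and 112 TPM against 42.4, 27.6 and 23.3, and Cldn4 at 141 and 136 against 49.4, 52.0 and 27.6. Summed over the list, trophectoderm TPM was 1690 and 1642 in the untagged libraries and 800, 632 and 520 in batch 2. Gata3 and Cdx2 did not pass, with log2 fold changes of -0.69 ± 0.21 (adjusted p = 0.0684) and -0.96 ± 0.41 (adjusted p = 0.174). Tfap2c, Tead4 and Dab2 did not pass either. The number of trophectoderm genes called lower depends on single libraries: it was 1 without replicate 1, 3 without replicate 2, 5 without replicate 3, 6 without replicate 4 and 4 without replicate 5. Krt18 was called in all of these fits, and Krt8 in all but that without replicate 1, where its adjusted p was 0.0623.

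Among 29 junction genes tested 6 fell, against 2.4% of all genes: Cldn4, Cldn6, Cldn7, Epcam, Dsp and Dsc2. On TPM 23 of the 29 were lower in every batch 2 library, against 47.2% of all genes. Epcam stood at 441 and 497 TPM against 235, 231 and 228, and Cldn7 at 414 and 409 against 176, 132 and 149. Of the junction genes none was called without replicate 1, 1 without replicate 2 and 3 without replicate 5. Of 18 pluripotency genes tested 2 fell, against 2.4% of all genes, Pou5f1 (-0.83 ± 0.18, adjusted p = 0.0242) and Klf5 (-0.80 ± 0.21, adjusted p = 0.0443), and the list's median was -0.03, that of all genes. Pou5f1 remained called without replicate 4 and not without any other library, with an adjusted p of 0.2 without replicate 1, and Klf5 was not called without replicate 1, 2 or 5. No pluripotency gene was called without replicate 1, 2 or 5, 1 was called lower without replicate 3, and 3 lower and 1 higher without replicate 4. Levels of cumulus and fibroblast genes were at or near 0 in both batches, and the blood list held 0.00492% and 0.0046% of TPM. The sperm list held 0.00022% in the untagged libraries and 0.000112% in batch 2. Its tested gene, Prm1, was lower in every batch 2 library than in either untagged one, as were 47.2% of all genes. Prm1 had a log2 fold change of -1.35 and was not called by edgeR. On log2(TPM + 1) limma called it lower, as it did 1029 of all 9132 genes.

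Other large falls were Lgals1, a galectin, at 176 and 45.8 TPM against 17.8, 19.4 and 11.95, and Tmsb4x, an actin-binding peptide, at 64.7 and 101 against 29.6, 13.6 and 9.25. Mfge8, a secreted glycoprotein, fell by 1.72 ± 0.22 (adjusted p = 0.00882). Ldoc1, Lgals7, Tinagl1 and the nucleoside transporter Slc29a1 also fell. Mfge8 was called in all 5 fits that leave out a library, Lgals1 in all but that without replicate 1 (adjusted p = 0.174), and Lgals7 in none. Ldoc1 and Tinagl1 were not called without replicate 1 or 2, and Tmsb4x and Slc29a1 not without replicate 1, 2 or 5. Rn45s, the ribosomal RNA precursor, which poly(A) capture should leave behind, stood at 241 and 215 TPM against 34.5, 52.7 and 38.0, a fall of 2.09 ± 0.16 (adjusted p = 0.00044). Lars2, a mitochondrial leucyl-tRNA synthetase, stood at 241 and 127 TPM against 38.8, 46.6 and 46.6. Rn45s thus moved with the batches, and its part in the other differences was not tested.

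Some genes of protein synthesis and turnover rose in batch 2 relative to the trimmed mean. Of 85 ribosomal protein genes tested 16 rose and none fell (median log2 fold change 0.36), against 4.05% of all genes called higher. Of 77 mitochondrial ribosomal protein genes 10 rose, of 57 translation factors 9 and of 36 proteasome genes 9, with none falling and medians of 0.29, 0.13 and 0.28. The direction depends on the scale. On log2(TPM + 1) limma called 2 ribosomal genes higher and 1 lower, 3 and 3 mitochondrial ribosomal genes, 2 and 8 translation factors and 1 and 3 proteasome genes, with medians of 0.02, -0.03, -0.20 and -0.04. In that fit 70 of all 9132 genes were called higher and 1029 lower, with a median of -0.33. On TPM, 17, 15, 24 and 15 members of the 4 lists were lower in every batch 2 library, against 47.2% of all genes, and 19, 18, 9 and 9 were higher, against 6.27%. Transcript length moved with this: genes under 1000 bases had a median log2 fold change of 0.24, with 73 higher and 5 lower, and genes of 4000 bases or more one of -0.10, with 23 higher and 38 lower. The tested ribosomal protein genes had a median length of 703 bases. With the length trend removed (limma, added after seeing the data) 1 ribosomal, 2 mitochondrial ribosomal, 5 translation and 3 proteasome genes were called higher. That fit called 126 of all 9132 genes higher and 93 lower. Without replicate 1 none of the 4 lists had a gene called, without replicate 2 only 3 translation factors were, and without replicate 5 the lists had 2, 1, 1 and 1. Without replicate 3 only 3 ribosomal, 5 mitochondrial ribosomal, 9 translation and 4 proteasome genes rose, and without replicate 4 there were 36, 16, 11 and 9. The trophectoderm median stayed at -0.60 with the trend removed, against -0.007 for all genes, with 4 of 19 genes lower, against 93 of all 9132.

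In edgeR's test no member was called among the DNA methylation (14 tested), H3K9 (16), H3K4 (9), BAF remodelling (19), m6A (19), Hippo (16) and apoptosis (18) genes, 111 in all, against 6.45% of all genes. Of these 111, 18 had an unadjusted p under 0.05 (16.2%, against 25.5% of all genes tested). DESeq2 called 6 of them, against 1310 of all 9132 genes, and limma on log2(TPM + 1) called 8, against 1099. These shares were below those of all genes, but the counts of 0 do not show equal levels. In edgeR's test, 3 of 15 genes often used as references rose and 1 fell, against 4.05% and 2.4% of all genes. On log2(TPM + 1) limma called 0 of the 15 higher and 3 lower, against 70 and 1029 of all 9132 genes. By edgeR Gapdh fell by 0.90 ± 0.23 (adjusted p = 0.0419). Ppia (0.52 ± 0.12, adjusted p = 0.0301), Hprt (0.57 ± 0.12, adjusted p = 0.0252) and H2afz (0.48 ± 0.11, adjusted p = 0.0348) rose. Each of these 4 was called in 1 of the 5 fits that leave out a library, that without replicate 4.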

How the data were processed

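RNA-seq of pooled mouse morulae was analysed in the 5 ASO-Control libraries. Libraries were grouped by their labels, and the Mettl3-ASO files were not used. Reads were processed by the authors with STAR 2.7.10 and RSEM 1.3.3 on mm10, per the submitters' processing notes. Each deposited table gives expected counts, the authors' RSEM estimates of reads per gene, which need not be whole. It also gives the deposited TPM, used for every level, and the deposited FPKM, used only as an alternative unit for counting present genes. Filters and annotation release are not given in the sources used here, and mitochondrially encoded transcripts were not analysed here. The total of 11802666 to 32327283 expected counts per library limits precision for genes of few counts.

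Means and SD over libraries, list sums and paralog shares were computed from TPM with Python 3.11.15, pandas 2.3.3, numpy 2.4.6 and scipy 1.17.1. Two-sided exact permutation over libraries was used for genes detected. Batch 2 (3 libraries) was compared with the untagged libraries (2 libraries) in R 4.3.3 with edgeR 4.0.16 (quasi-likelihood, TMM, expected counts rounded to whole numbers, mean TPM of at least 1, Benjamini-Hochberg adjustment over all genes tested, threshold 0.05). All adjusted p-values printed come from this test, or from the same test without a library. Both were set beside DESeq2 1.42.0 and limma 3.58.1, other filters, scalings and pseudocounts, thinning, and leaving out each library. The edgeR step was tested on simulated data.

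Genes named are the 6 markers, the 20 highest by mean TPM, the 3 highest of each of 55 lists with defining pathway members under 1 TPM, the leading pair of each paralog set, the 10 most variable with a mean of at least 10 TPM, and the 10 largest rises and falls among called genes with a mean of at least 5 TPM, passing over predicted and clone names in the last 2 groups. Other genes, such as list members called between batches and further low members, were chosen after their values were seen. The members and lists were chosen with earlier results of these data known. A few genes that this rule names are not reported here. Promoter stretches and gene positions are RefSeq's, GRCm38.p6.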

Additional observations from a re-analysis of the deposited data

Results flagged for a closer look

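Of 257 genes and 8 list shares reported, 28 genes had 1 library far from the other 4, that is, a gap to its nearest neighbour that took up most of the range (Dixon's 95% criterion). Chance flags about 5% of groups of normally distributed values that were not chosen for their spread. Some of these genes were chosen for their spread or their batch difference, and some were at 0 in all libraries but 1. The number flagged can therefore not be weighed against that share. The library apart was replicate 1 for 10 genes, replicate 2 for 8, replicate 3 for 1, replicate 4 for 5 and replicate 5 for 4.

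Among lineage and signalling genes, replicate 1 was the highest for Gata6 (57.1 TPM against 33.6 to 39.3 in the others), Sox2 (2.6 TPM), Yap1 (5.61 against 2.66 to 3.28), Lgals1 (176 against 11.95 to 45.8), Setd1a (2.19 against 1.34 to 1.53) and Bmp4 (0.51). Replicate 2 stood apart for Zfp42 (183 TPM against 131 to 141), Mdh2 (821 against 548 to 585), Bnip3l (324 against 251 to 268), Xkr9 (43.5), Zp3 (3.09 against 1.12 to 1.33) and, as the lowest, Mrpl42 (701 against 871 to 928). Replicate 4 was the highest for Gmnn (673 TPM against 584 to 610), Srfbp1 (56.6) and Tnfsf13b (28.8 against 7.31 to 12.3). Replicate 5 held all the Hba-a2 signal, 6.09 TPM against 0, and was the highest for Zscan4f (1.28 TPM) and Zscan4d (0.63).

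The remaining genes were near 0 in every library, so that few reads set the flag. Their highest values were 0.35 TPM for Pfkm, 0.11 for Bcl2, 0.1 for Fgf8 and 0.06 for Actl6b in replicate 1, 0.3 for Pdk1 and 0.03 for Esr1 in replicate 2, 0.03 for Ptprc in replicate 3, 0.32 for Cdkn2a and 0.05 for Kmt2a in replicate 4, and 0.14 for Cdkn1b in replicate 5.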

How the results depend on the processing

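The 7972 present genes became 5024 at a threshold of 5 TPM. They numbered 9109 at 0.5 TPM, 7960 by FPKM, 7924 after thinning and 7998 to 8121 with a library left out. The 100 highest genes held 28.3% by CPM against 39.3% by TPM, and 38.8% to 39.7% with a library left out. The fall in genes reaching the threshold from untagged to batch 2 ranged from -970 to -746 over its alternatives. The mean TPM of the 257 genes reported moved by less than 1 SD in each of 1285 leave-outs. That is no test of stability, since leaving out 1 of 5 values cannot move a mean by 1 SD. The rank of these genes moved by more than the libraries' spread for 153 of 257 when CPM replaced TPM. The same limit holds for list and paralog shares with a library left out. When CPM replaced TPM, 47 of 55 list shares and 17 of 37 paralog shares moved by more than 1 SD.

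The 589 genes called between the control batches became 1383 without a filter, 1310 with DESeq2, 1099 with limma on log2(TPM + 1), and, in alternatives added after seeing the data, 333 with each library centred on its median and 219 with the length trend removed. They numbered 609 with median-ratio size factors (404 higher, 205 lower), 505 at a mean of at least 5 TPM (264 higher, 241 lower), 596 after thinning and 880 with a pseudocount of 0.1 (64 higher, 816 lower). Leaving out a library gave 15 to 816 genes: 15 without replicate 1, 83 without replicate 2, 395 without replicate 3, 816 without replicate 4 and 93 without replicate 5. Of the genes called, 14, 72, 322, 511 and 91 in that order were among the 589. No fold change of a called gene named here changed sign. The cause of these changes was not tested, beyond fewer libraries or other genes entering the fit. With replicate 1 or 2 left out, the lone untagged library is assumed to vary like those of batch 2. No paired analysis was possible because a single group was analysed, in which each replicate number occurs once.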
